A study of Mus musculus with 26 samples.

Results

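Auditory cluster 2 (Aud_2) is the largest of the 3 clusters that the authors' cell table gives for thalamic neurons of the auditory system. Its members are the cells whose cluster entry in that table is Aud_2, 212 of 1972 cells of the series and of 380 auditory cells, from 5 mice. The other auditory clusters are Aud_1 with 101 cells and Aud_3 with 63 cells, and 4 auditory cells had no cluster. The working description of the cluster, Calb2 neurons with Necab1, was checked against the counts.

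The series profiled thalamic neurons of male mice that project to the cortex and carried a retrograde fluorescent label, which marks cells by where their axons end, in 1 of 5 systems: auditory, motor, prefrontal, somatosensory or visual. Auditory replicates 1 and 2 were 104 days old, shared a sort date and were in sequencing batch 1. Replicates 3 and 4 were 81 days old, shared another sort date and were in batch 2. Replicate 5 was 70 days old and in batch 3, and its animal identifier was also given to visual cells with another sort date. Brain slices were held in protease with drugs that silence neuronal activity, thalamic areas were cut out, and fluorescent neurons were picked by hand. A share of cells below is thus a share of the picked, labelled cells and not of the thalamus. Single cells were made into 3' libraries in which a unique molecular identifier (UMI) marks each captured transcript, with known spike-in RNAs added.

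The thalamus relays sensory signals to the cortex and also links cortical areas with one another. Primary relay neurons are driven by the sensory periphery, whereas higher-order, intralaminar and midline neurons receive much of their drive from the cortex or from other brain regions. Calretinin, the protein of Calb2, and calbindin, the protein of Calb1, are cytoplasmic calcium-binding proteins that have long been used to set thalamic populations apart, and Necab1 encodes another neuronal calcium-binding protein. Tnnt1, a troponin gene best known from slow muscle, and Prkcd, a protein kinase C gene, are common markers of primary relay nuclei.

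The deposited UMI counts were summed per animal and cluster, so that each animal gives 1 value. The Aud_2 sums held 1129084 to 9124389 UMIs, those of Aud_1 664161 to 2571698 and those of Aud_3 724573 to 1593168. Levels are CPM, counts scaled to a common total, in a sum, given for auditory replicates 1 to 5 in that order or as mean ± SD over 5 animals, and differences are log2 fold changes ± SE from edgeR. The median Aud_2 cell held 84322 UMIs. Between animals the median ran from 51791 UMIs in replicate 5 to 158482 in replicate 2. Aud_2 cells held fewer UMIs than Aud_3 cells in 5 of 5 animals, by 0.26 on the log2 scale (two-sided exact sign-flip permutation test, p = 0.0625, the smallest 5 animals can give, adjusted over 6 tests 0.25). The other 5 tests, of UMIs against Aud_1 and of detected genes and UMIs per spike-in UMI against both clusters, had adjusted p between 0.25 and 0.5625. Profiles of Aud_2 in different animals had a Pearson r of 0.791 to 0.892 across 9580 genes of log2(CPM + 1), which describes likeness across genes and not across samples.

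Aud_2 made up an uneven part of the auditory cells. Of the auditory cells, 80.8% were Aud_2 in replicate 1 (59 of 73, exact 95% binomial interval 69.9 to 89.1%), 75% in replicate 2 (57 of 76), 46.4% in replicate 3 (39 of 84), 28.4% in replicate 4 (21 of 74, 18.5 to 40.1%) and 49.3% in replicate 5 (36 of 73). The 2 animals of batch 1 were thus the richest in Aud_2, and age, sort date and batch cannot be told apart from one another in these 5 animals. The authors also clustered all systems together into 9 joint clusters. Of the 212 Aud_2 cells, 201 (94.8%) fell into joint cluster 5. That cluster of 331 cells also held 87 of the 101 Aud_1 cells, only 1 of the 63 Aud_3 cells, and 42 cells of other systems. Most Aud_3 cells, 60 of 63, fell into joint cluster 8, which held 2 Aud_2 cells.

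Calb2 (calretinin; chromosome 8, 110137502 to 110168210 in GRCm38) was the most abundant of the 3 anchor genes in Aud_2 in every animal. Its levels were 1552, 1392, 1126, 562 and 721 CPM in auditory replicates 1 to 5. In Aud_1 they were 152, 416, 121, 47.8 and 176 CPM, and in Aud_3 2808, 2435, 2050.3, 2132 and 1602 CPM. Aud_2 lay between the other clusters in 5 of 5 animals, and its range overlapped with neither. Against Aud_1 Calb2 was 2.69 ± 0.31 higher on the log2 scale, and against Aud_3 -1.23 ± 0.29. Calb2 thus marked Aud_2 beside Aud_1 only, and Aud_3 had the highest Calb2 of the 3 clusters.

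**Figure D1:**
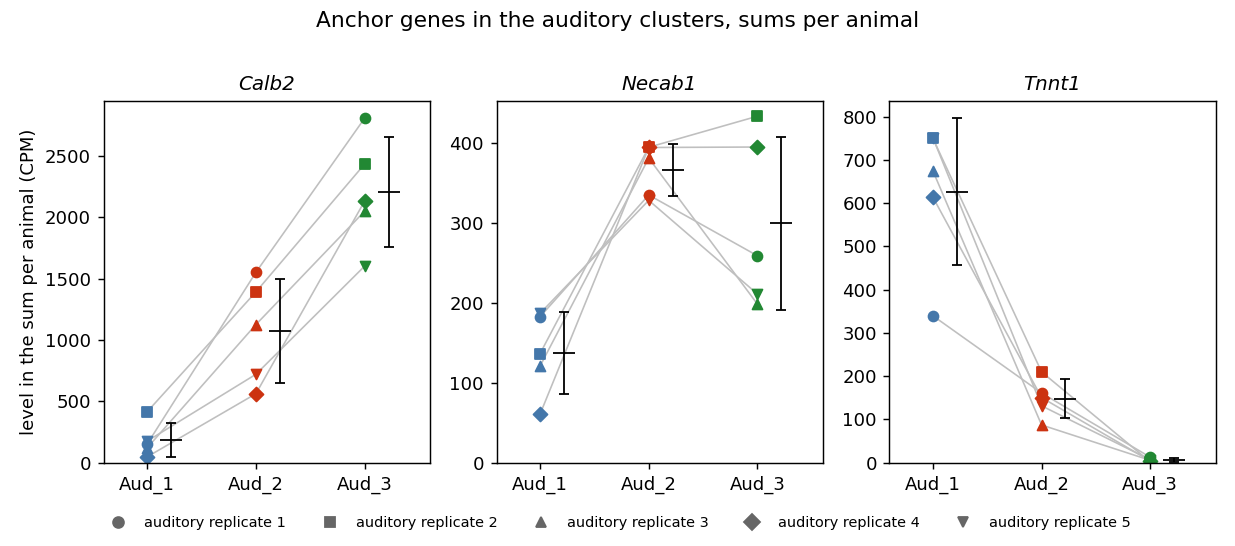
Levels of Calb2, Necab1 and Tnnt1 in CPM (y axis) in the sum of each animal for Aud_1, Aud_2 and Aud_3 (x axis). Each symbol is 1 auditory replicate, grey lines join the clusters of an animal, and the black bar is mean ± SD over 5 animals. Calb2 in Aud_2 lies between 562 and 1552 CPM, above every Aud_1 sum and below every Aud_3 sum, while Tnnt1 falls from Aud_1 to Aud_3 in each animal.

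Necab1 (chromosome 4, 14952245 to 15149794) was the steadiest anchor across animals, at 335, 394, 381, 394 and 328 CPM. It was at 182, 136, 121, 60.7 and 187 CPM in Aud_1, lower than Aud_2 in 5 of 5 animals, with a difference of 1.45 ± 0.29. In Aud_3 it was at 259, 433, 198, 395 and 211 CPM, and the ranges of Aud_2 and Aud_3 overlapped, with a difference of 0.25 ± 0.28. Tnnt1 (chromosome 7, 4504570 to 4516382) was present in Aud_2 at 161, 210.0, 87.3, 151 and 132 CPM. In Aud_1 it was at 339.7, 749.8, 675, 614 and 751 CPM and in Aud_3 at 12.7, 1.87, 5.53, 4.14 and 6.9 CPM. The Aud_2 sums overlapped with neither cluster for Tnnt1.

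Single cells of Aud_2 often held UMIs of all 3 anchors. A Calb2 UMI was found in 206 of 212 cells (97.2%), a Necab1 UMI in 192 (90.6%) and a Tnnt1 UMI in 139 (65.6%), and 123 cells had all 3. After each cell was thinned to 20000 UMIs, which left out no cell, the shares were 95.8, 85.8 and 51.4%. The same thinned shares were 1.11% for Calb2 and 2.22% for Necab1 in the 90 cells of the somatosensory cluster Som_1. The median Som_1 cell held 153090 UMIs before thinning. The thinned Aud_2 shares stood far above those of Som_1, which was the least like Aud_2 of the clusters compared below (Pearson r of 0.801). The other auditory clusters came closer to Aud_2. Aud_1 gave thinned shares of 37.6% for Calb2 and 38.6% for Necab1, and Aud_3 gave 98.4% and 63.5%. A Calb2 UMI was thus found in a larger share of Aud_3 cells than of Aud_2 cells. For Tnnt1, Aud_3 gave a thinned share of 6.35%. By the anchor with the highest CPM, 159 Aud_2 cells (75%) were Calb2 cells, 37 (17.5%) Necab1 cells and 16 (7.55%) Tnnt1 cells. The animals differed in this: Calb2 led in 84.7% of cells in replicate 1 (50 of 59) and in 52.4% in replicate 4 (11 of 21), where Necab1 led in 42.9% (9 of 21). In 6 cells no Calb2 UMI was seen, and in 24 cells Tnnt1 exceeded Calb2. Calb2 and Necab1 were thus found across the cluster, though not as the leading anchor of every cell.

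**Figure D2:**
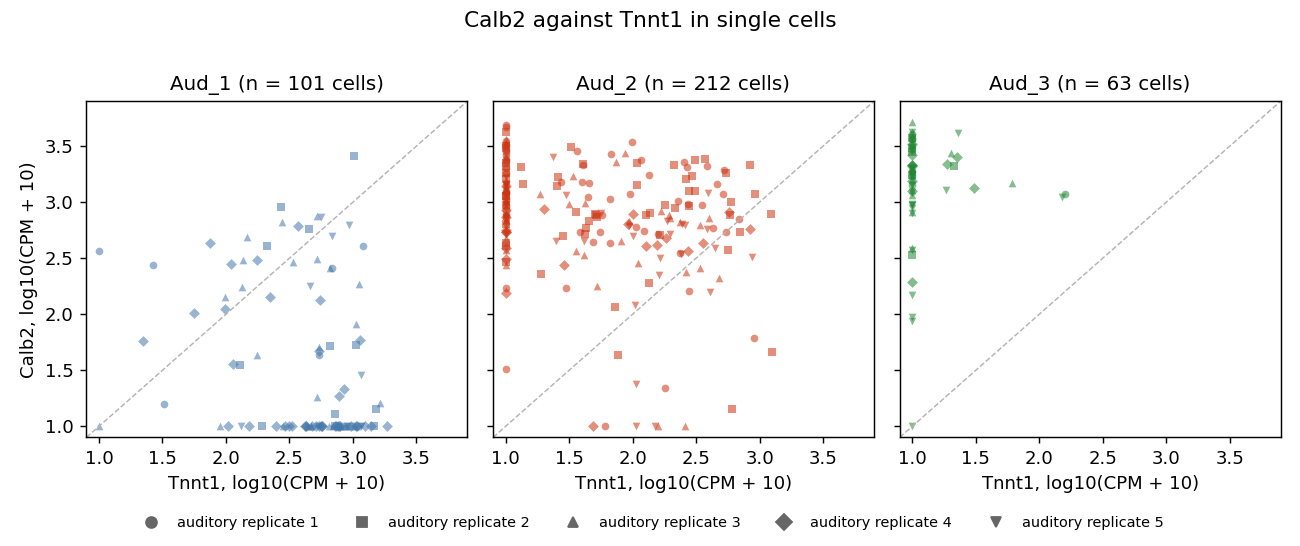
Calb2 (y axis) against Tnnt1 (x axis) in single cells of Aud_1, Aud_2 and Aud_3, both as log10(CPM + 10), with 1 symbol shape per auditory replicate and a dashed line where both are equal. Of the 212 Aud_2 cells, 24 lie below the line and those with no Tnnt1 UMI line up at the left edge.

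Aud_2 cells were excitatory neurons by their transcripts. Slc17a6, which encodes the vesicular glutamate transporter of most thalamic neurons, stood at 815, 817, 769, 799 and 787 CPM, nearly the same in every animal. Slc17a7, the transporter more typical of cortex and primary relay nuclei, was low and uneven at 45.8, 35.2, 10.5, 17.7 and 4.93 CPM, and Slc17a8 was at 0 to 1.97 CPM. The transcription factor Tcf7l2, which is expressed across the excitatory thalamus, was at 1443 ± 174 CPM and Gbx2, a factor of developing thalamic neurons, at 319.6 ± 99.3 CPM. Gad1, the main GABA-making enzyme gene, was at 0 in all 5 sums, and the 10 listed GABA neuron markers summed to 0 to 5.37 CPM, with UMIs of 6 of them. Markers of other cell types were low. The 8 astrocyte markers summed to 0 to 22.9 CPM (6 with UMIs), the 9 oligodendrocyte markers to 24.6 to 89.5 CPM (8 with UMIs), the 5 markers of their precursors to 0 to 3.49 CPM (2 with UMIs) and the 8 endothelial and mural markers to 1.48 to 5.82 CPM (3 with UMIs, the endothelial marker Cldn5 at 0). The 8 microglia markers summed to 115 to 182 CPM (5 with UMIs), of which C1qb, a complement gene, gave 77.2 to 139 CPM, and the part of such RNA in the results was not tested. Of the 212 cells, 3 held 3 or more oligodendrocyte markers and none held as many astrocyte, microglia or vessel markers. Leaving such cells out gave 61 calls against Aud_1 and 500 against Aud_3, beside 75 and 511 with all cells.

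Among neuropeptide genes, Cck, which encodes cholecystokinin, was the most abundant in Aud_2 after the granin gene Scg2. Cck was at 1029, 851, 1348, 1292 and 1535 CPM and Scg2 at 1584, 1881, 1716, 1638 and 1897 CPM. Grp, the gene of gastrin-releasing peptide, had no UMI in any of the 5 sums. Crh, the gene of corticotropin-releasing hormone, was at 13.1, 29.8, 65.9, 16.8 and 24.1 CPM, Adcyap1, the gene of the peptide PACAP, at 20.9, 15.5, 36.5, 26.6 and 22.7 CPM, and Nts, the gene of neurotensin, at 5.97, 4.6, 17.5, 2.66 and 7.88 CPM. Immediate early genes, which neuronal activity induces, were uneven between animals for Fos (39.2 to 221 CPM, highest in replicate 4) and even for Egr1 (65.3 to 94.8 CPM). None of the 11 tested immediate early genes passed the threshold between Aud_2 and either auditory cluster, which is near the share over all genes. Of all genes tested, 0.565% were higher and 0.108% lower against Aud_1, and 2.83% and 1.76% against Aud_3.

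The comparison with Aud_1 and Aud_3 used 1 fit over 15 sums with the animal as a block. How the clusters were made is not given in the sources used here, and clusters of cells are usually made from their counts, so what follows describes how the clusters differ and tests nothing. Of 11144 genes, 63 (0.565%) were higher in Aud_2 than in Aud_1 and 12 (0.108%) lower at the adjusted p threshold of 0.05. Against Aud_3, 315 (2.83%) were higher and 196 (1.76%) lower. Both comparisons share the Aud_2 sums, so their counts are not independent. The counts from gene lists below are to be read beside these shares, at which a short list would hold few or 0 calls. The median fold over all genes was 0.13 against Aud_1 and 0.22 against Aud_3 on the log2 scale. DESeq2, which scales the sums differently and tested genes of low counts too, put these medians at -0.05 and -0.18. With each cell weighted alike, limma called 613 genes higher and 230 lower than in Aud_3. Leaving out replicate 2, 3, 4 or 5 left 49, 35, 28 and 32 calls against Aud_1 and 324, 242, 221 and 266 against Aud_3.

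Several markers of primary relay neurons were lower in Aud_2 than in Aud_1. Of the 13 tested first-order relay markers, 3 were lower in Aud_2 (Tnnt1, Nefm and Cplx1) and 0 higher, with a median log2 fold of -1.57. Cplx1, which encodes a complexin of fast transmitter release, was at 493, 594, 632, 772 and 511 CPM in Aud_2 and at 1441, 1448, 2151, 2283 and 1691 CPM in Aud_1, with a difference of -1.57 ± 0.22. Nefm, the medium neurofilament gene, was at 363, 231, 217, 137 and 202 CPM against 487, 898, 696, 831 and 727 CPM, a difference of -1.69 ± 0.27. The Aud_2 and Aud_1 sums did not overlap for either gene. Prkcd was at 402, 495, 378, 553 and 274 CPM in Aud_2 and 1442, 1522, 1628, 2171 and 1394 CPM in Aud_1, lower in 5 of 5 animals, although its fold of -1.99 ± 0.48 did not pass the threshold. Rora, a nuclear receptor of sensory relay neurons, was likewise lower in 5 of 5 animals (1782 ± 179 against 2674 ± 248 CPM) without passing.

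Other named genes were lower in Aud_2 than in Aud_1 as well. Of 21 tested vesicle release genes, 2 (Cplx1 and Vamp1) were lower and 1 (Syt5) higher, with a median of -0.01. Atp2b1, which encodes a plasma membrane calcium pump, was at 1777 ± 259 against 3110.5 ± 232 CPM (-0.82 ± 0.17), and Slc24a2, a sodium, calcium and potassium exchanger gene, at 394 ± 62.5 against 840.5 ± 121 CPM (-1.09 ± 0.14). Pcp4, which encodes a small calmodulin-binding protein, was at 1255, 723, 1554, 1893 and 1399 CPM in Aud_2 and 2237, 1340.1, 4752, 4142 and 4269 CPM in Aud_1 (-1.19 ± 0.21). Vamp1, a synaptic vesicle fusion gene, differed by -1.66 ± 0.30, the scaffold gene Slc9a3r1 by -2.87 ± 0.40, the Rac regulator gene Elmo1 by -1.26 ± 0.22 and the GABA-A receptor subunit gene Gabra4 by -0.87 ± 0.18. Each of these was lower in 5 of 5 animals.

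Genes higher in Aud_2 than in Aud_1 included some of calcium-binding proteins and of receptors. Of 17 tested genes of calcium buffers and sensors, 4 were higher (Calb2, Necab1, Calb1 and Nrgn) and 1, Pcp4, lower. The median of that list was 0.21, beside 0.13 over all genes. Calb2 and Necab1 are the genes by which the cluster was described. In the receptor lists, 1 of 19 tested neuromodulator receptor genes was higher and 0 lower. Of 28 tested genes of glutamate transporters and receptors, 1 was higher and 0 lower. Of 14 tested GABA receptor genes, 1 was higher and 1 lower. The shares over all genes were 0.565% higher and 0.108% lower. Calb1 was at 1122, 1410.0, 1117, 1055 and 1154 CPM in Aud_2 and at 622, 795, 562, 705 and 613 CPM in Aud_1, with no overlap and a difference of 0.83 ± 0.17. Nrgn, which encodes the postsynaptic calmodulin-binding protein neurogranin, was at 44.9, 14.8, 100.4, 5.31 and 17.7 CPM in Aud_2 and at 0, 1.97, 0.43, 1.17 and 1.51 CPM in Aud_1 (4.64 ± 0.71). Htr2c, a serotonin receptor gene, was at 173, 215, 161, 205 and 212 CPM in Aud_2 and at 8.4, 37.7, 34.4, 16.3 and 39.1 CPM in Aud_1 (2.86 ± 0.38). The ranges of the clusters overlapped for neither Nrgn nor Htr2c, and Nrgn varied most between Aud_2 animals.

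The GABA-A subunit gene Gabra3 (3.40 ± 0.73), the AMPA receptor auxiliary subunit gene Cacng3 (3.95 ± 0.84) and the synaptotagmin gene Syt5 (2.36 ± 0.46) were also higher in 5 of 5 animals. Gabra3 and Gabra4 differed in opposite directions between the same clusters, but they no longer passed the threshold in 8 and 9 of 11 alternative runs. The same was true of Cacng3 and Calb1 in 6, of Atp2b1 in 5 and of Syt5 in 3 of these runs. Ptprt, a receptor tyrosine phosphatase gene, had no UMI in the 5 Aud_1 sums and was at 24.1 ± 9.48 CPM in Aud_2, at least 71.8-fold higher when Aud_1 is set at a floor of 3 counts over the group. The potassium channel gene Kcnc4, also without a UMI in Aud_1, was at 11.7 ± 8.71 CPM, at least 34.8-fold higher. Kcnc4 no longer passed the threshold in 7 of 11 alternative runs, and Ptprt in 5. Among 15 tested genes of fast firing, a list that also holds Nefm, Kcnc4 was the only 1 with a fold above 0. The median log2 fold of that list was -0.71, beside 0.13 over all genes. Gulp1, an engulfment adaptor gene, and Crip2, a LIM-domain gene, each had 1 UMI in Aud_1, and their pooled levels in Aud_2 were higher by a ratio of 252 (95% exact counting interval 45 to 9965) and 286 (95% exact counting interval 51.1 to 11303).

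Other genes with large folds over Aud_1 were at 35.8 to 85.7 CPM on average in Aud_2. These were Rasgrf2, a Ras exchange factor gene (35.8 ± 13.8 CPM), Cpne5, a copine gene (62 ± 28.4 CPM), Plcxd3 (82.4 ± 25.8 CPM), the amino acid transporter gene Slc7a3 (41.8 ± 23.7 CPM), the defensin gene Defb1 (74.4 ± 19.8 CPM) and Lypd1, whose protein binds nicotinic receptors (85.7 ± 33.9 CPM). In Aud_1 the mean of each was 1.26 to 3.51 CPM. Their log2 folds ran from 4.67 for Lypd1 to 6.11 for Rasgrf2, and each was higher in 5 of 5 animals. Rasgrf2 and Slc7a3 each no longer passed the threshold in 5 of 11 alternative runs.

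**Figure D3:**
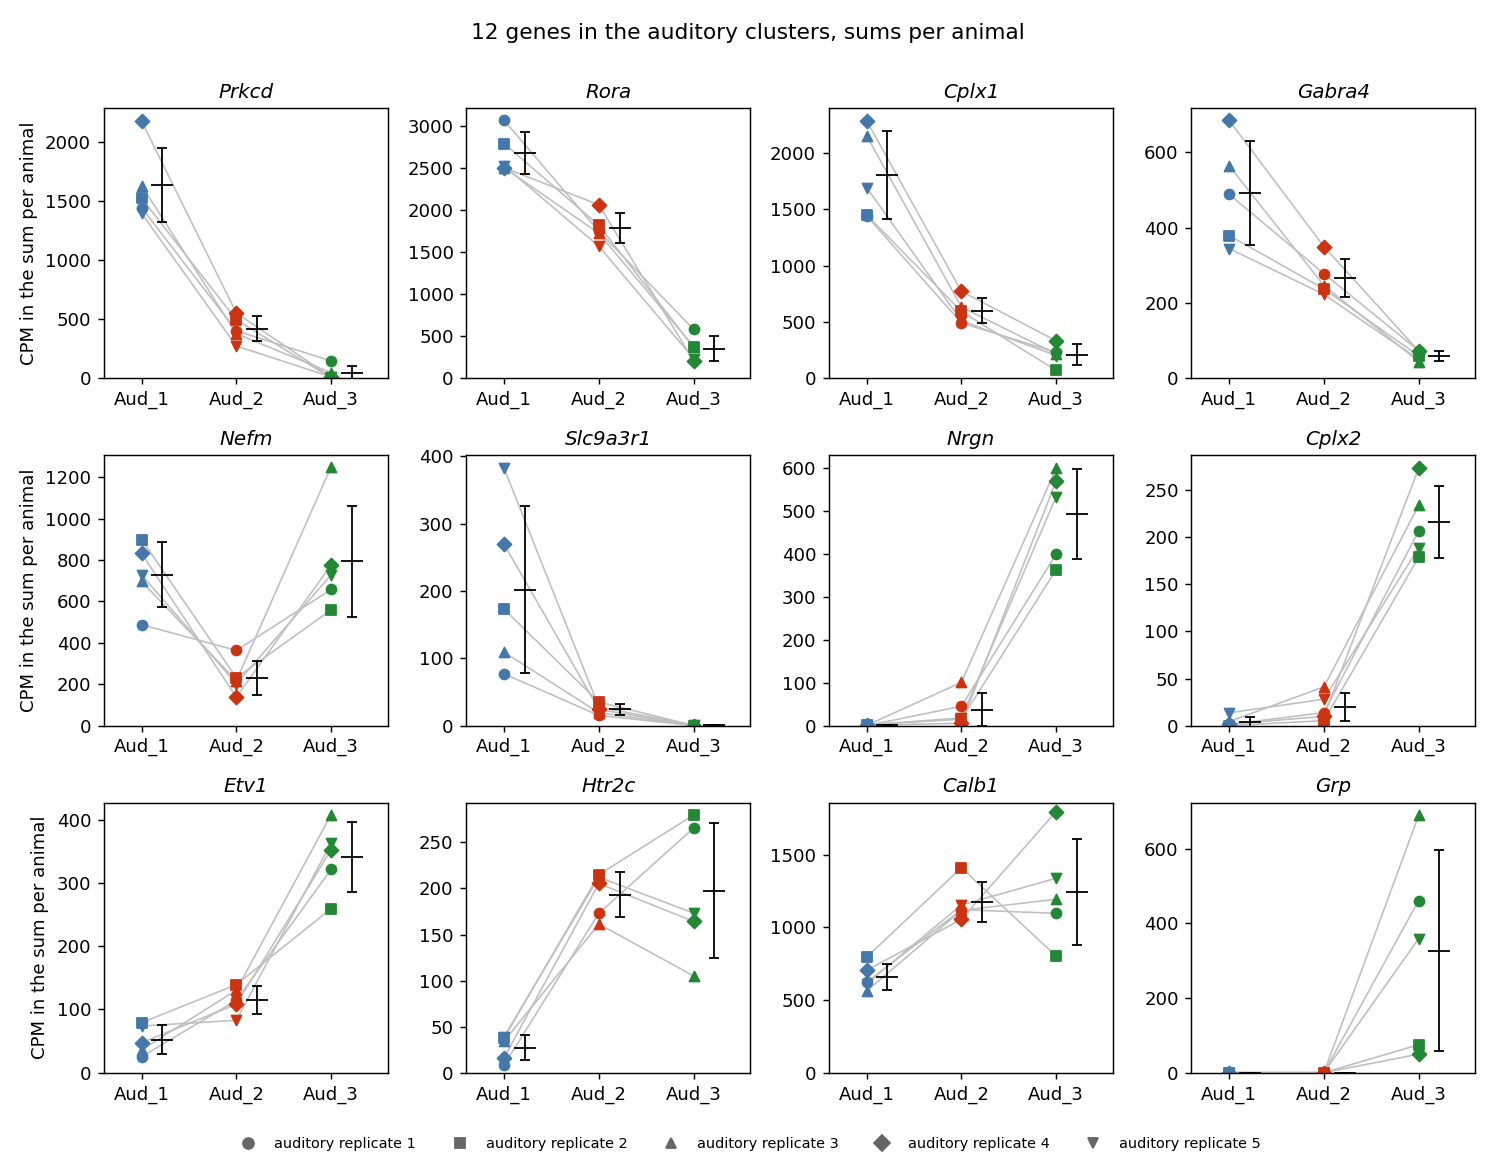
Levels in CPM (y axis) of 12 genes in the sum of each animal for Aud_1, Aud_2 and Aud_3 (x axis), with 1 symbol per auditory replicate, grey lines joining the clusters of an animal and black bars for mean ± SD over 5 animals. Prkcd, Rora, Cplx1, Gabra4 and Slc9a3r1 step down from Aud_1 over Aud_2 to Aud_3, Etv1 steps up, Nefm is lowest in Aud_2, and Grp is at 0 in Aud_1 and Aud_2.

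Beside Aud_3, in contrast, several relay markers were higher in Aud_2. Of the 13 tested first-order relay markers, 6 were higher in Aud_2 (Slc17a7, Tnnt1, Prkcd, Rora, Lef1 and Cplx1) and 2 lower (Hpca and Nefm), with a median of 1.08. Prkcd was at 148, 5.61, 49, 11 and 13.2 CPM in Aud_3, below every Aud_2 sum, with a difference of 3.56 ± 0.56. Rora was at 582, 369.6, 378, 209.8 and 237 CPM in Aud_3 against 1746, 1817, 1721, 2059 and 1568 CPM in Aud_2, a difference of 2.32 ± 0.18. Cplx1 was higher in Aud_2 by 1.52 ± 0.22 and Tnnt1 by 4.47 ± 0.40. Slc17a7 had 700 UMIs in Aud_2 and 1 in Aud_3, a pooled ratio of 176 (95% exact counting interval 31.6 to 6976). For Prkcd, Rora, Cplx1, Tnnt1 and Gabra4, Aud_2 lay between Aud_1 and Aud_3 in 5 of 5 animals.

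Nefm did not follow that order. It was lower in Aud_2 than in Aud_3, with a difference of -1.84 ± 0.27 and 657, 559, 1249, 776 and 727 CPM in Aud_3, and lower than in Aud_1, so that Aud_2 had the least Nefm of the 3 clusters in 5 of 5 animals. Nefl, the light neurofilament gene, was also lower in Aud_2 than in Aud_3 (369 ± 55 against 753 ± 150.2 CPM, -1.09 ± 0.23), while Aud_2 and Aud_1 overlapped.

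Most of the tested neuropeptide genes were lower in Aud_2 than in Aud_3. Of 18 listed neuropeptide genes, 8 passed the filter on low counts. Grp, with no UMI in Aud_1 or Aud_2, passed it only through Aud_3, so the tested set can lean towards genes high in Aud_3. Of the 8, 6 were lower in Aud_2 (Grp, Nts, Cartpt, Adcyap1, Crh and Scg2) and 0 higher. The median log2 fold of the 8 was -4.16, also with Grp at its bound, and describes the tested genes only. Grp was at 461, 74.9, 689, 49.7 and 359 CPM in Aud_3 and at 0 in Aud_2, at least 2385-fold lower in Aud_2 if 3 counts in all its sums are taken for 0. Nts was at 859, 1739.5, 465, 638 and 622 CPM in Aud_3 (-7.19 ± 0.68). Cartpt, the gene of the CART peptide, was at 189, 284, 484, 705 and 986 CPM in Aud_3 and 7.81, 2.63, 21.7, 5.31 and 7.39 CPM in Aud_2 (-6.15 ± 0.64). Adcyap1 (-4.25 ± 0.54) and Crh (-4.07 ± 0.69) were present in Aud_2 at a small part of the Aud_3 level. Scg2 differed least, at 1743 ± 141 against 4216 ± 611 CPM (-1.34 ± 0.17). Cck overlapped between the clusters (0.43 ± 0.20).

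Channels and receptors also differed between Aud_2 and Aud_3. The 16 tested burst and leak channel genes held 3 that were higher in Aud_2, among them Cacna1g, the low-threshold calcium channel gene behind thalamic bursts (336 ± 98.3 against 110.2 ± 48.3 CPM, 1.59 ± 0.23), and the pacemaker channel gene Hcn4 (2.44 ± 0.66). They also held 2 that were lower, among them the channel-interacting gene Kcnip1 (-7.14 ± 1.45), whose Aud_2 level was 26.3 CPM in replicate 1 and at most 0.438 CPM in the others. Of the 14 tested GABA receptor genes 4 were higher in Aud_2 and 0 lower, beside 2.83% and 1.76% of all genes. Only 6 of the 14 had a fold above 0, and the median of the list was -0.06, beside 0.22 over all genes. Gabrd, the extrasynaptic subunit gene, was at 182, 228, 139, 190.4 and 159 CPM in Aud_2 and at 11.6, 9.36, 11.9, 29 and 25.1 CPM in Aud_3 (3.37 ± 0.31), and Gabra4, its usual partner in the thalamus, differed by 2.06 ± 0.19. The NMDA glutamate receptor gene Grin2b (1.22 ± 0.23) and the potassium channel gene Kcnc2 (1.51 ± 0.25) were higher in Aud_2. Oprk1, the kappa opioid receptor gene, was at 0.663 ± 1.15 CPM in Aud_2 and 32.9 ± 23.6 CPM in Aud_3 (-6.65 ± 1.45).

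Of 22 tested thalamic transcription factors, 6 were higher in Aud_2 than in Aud_3 and 1 was lower, beside 2.83% and 1.76% of all genes. Against Aud_1 0 passed in either direction, which is near the shares over all genes (0.565% higher and 0.108% lower). Prox1, a homeobox gene, was at 108, 126, 114, 145 and 97 CPM in Aud_2 and at 40.4, 0, 3.95, 0 and 3.14 CPM in Aud_3 (4.36 ± 0.81). Lef1, a partner of the Wnt pathway, differed by 2.24 ± 0.56, Foxp2 by 1.40 ± 0.25 and Tcf7l2 by 0.50 ± 0.11. Etv1, an ETS-family gene, was at 114, 139, 130.3, 108 and 82.8 CPM in Aud_2 and 321, 259, 408, 352 and 363 CPM in Aud_3, a difference of -1.65 ± 0.29. Release genes differed in kind as well. Cplx2, the complexin more common in the forebrain, was at 19.6 ± 14.8 against 216 ± 38.1 CPM (-3.99 ± 0.60), whereas Cplx1 and Syt9 (3.18 ± 0.48) were higher in Aud_2. Nrgn was lower in Aud_2 than in Aud_3 (-4.19 ± 0.53), as was Cbln2, a secreted synapse organizer gene (-4.26 ± 0.78).

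The genes with the largest folds over Aud_3 were at 20.6 to 53.3 CPM on average in Aud_2 and at or near 0 in Aud_3. Gckr, a glucokinase regulator gene, Arid5a, a DNA-binding gene, and Krt12, a keratin gene, had no UMI in Aud_3 and were at least 48.4-, 47.6- and 43.8-fold higher. Slc9a3r1, Cdc25a, Echdc2, Apoe and Eln had 1 or 2 UMIs in Aud_3, and Pde1c, a phosphodiesterase gene, differed by 5.98 ± 1.08, with 25, 29.9, 109, 38.1 and 13.8 CPM in Aud_2. Slc9a3r1, which was lower in Aud_2 than in Aud_1, was higher than in Aud_3 by a pooled ratio of 140.3 (95% exact counting interval 25.1 to 5553). In the other direction, Icam5, an adhesion gene of forebrain neurons, was at 20.8, 20.6, 21.3, 19.3 and 18.2 CPM in Aud_3 and at 0 in every Aud_2 sum, at least 146-fold lower. Fam46a was also at 0 in Aud_2, at least 159-fold lower. Tpbg (-7.90 ± 1.32), Tmem200a (-7.57 ± 1.37), Rasal1 (-7.03 ± 1.51) and Ngef (-6.85 ± 1.20) were lower in 5 of 5 animals, and Pxylp1 had 1 UMI in Aud_2 against 144 in Aud_3.

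Calb2 varied widely inside Aud_2, which allowed a comparison within the cluster. The median cell held 1174, 937, 711, 527 and 609 CPM of Calb2 in replicates 1 to 5, and single cells ranged from 0 to 4829 CPM. Within each animal the cells were ranked by Calb2 and split at the middle into upper-Calb2 and lower-Calb2 cells (104 and 108 cells), and each group was summed. Calb2 was left out of the test and of the totals. The pooled Calb2 level was 1592 ± 641 CPM in upper-Calb2 and 472 ± 123 CPM in lower-Calb2 cells, on average 3.31-fold apart. Of 9765 genes, 18 (0.184%) were higher and 8 (0.0819%) lower in upper-Calb2 cells. With DESeq2, which also tested low genes, 187 were higher and 152 lower.

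Calb1 went with Calb2. It was at 1448, 1820.3, 1284, 1351 and 1541 CPM in upper-Calb2 and at 748, 864, 909, 743 and 845 CPM in lower-Calb2 cells of replicates 1 to 5, higher in 5 of 5 animals by 0.87 ± 0.11 (edgeR, adjusted p = 0.00794). Htr2c was at 244, 293, 252, 250.2 and 290.3 CPM against 92.3, 111, 46.6, 158 and 150.1 CPM (1.38 ± 0.25, adjusted p = 0.0451). Ncald, which encodes the calcium sensor neurocalcin delta, was higher by 0.79 ± 0.14 (adjusted p = 0.0451), and Scg2 by 0.60 ± 0.10 (adjusted p = 0.0319). Gap43, a growth cone gene, was higher by 0.77 ± 0.13 (adjusted p = 0.0346). Each of these was higher in 5 of 5 animals. Necab1 did not pass, at 333 ± 64.5 against 399.8 ± 85.2 CPM (-0.23 ± 0.19, adjusted p = 0.718).

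Prkcd went the other way. It was at 226, 357, 243, 428 and 174 CPM in upper-Calb2 and at 607, 681, 550.1, 685 and 354 CPM in lower-Calb2 cells, lower in 5 of 5 animals (-1.03 ± 0.15, adjusted p = 0.017). Pcp4 (-0.86 ± 0.13, adjusted p = 0.0252), Atp2b1 (-0.45 ± 0.08, adjusted p = 0.0451), the potassium channel gene Kcna2 (-0.87 ± 0.16, adjusted p = 0.0487) and Lrrc7, a postsynaptic scaffold gene (-0.98 ± 0.18, adjusted p = 0.0451), were lower in 5 of 5 animals too. Tnnt1, at 115 ± 72 against 186 ± 61.8 CPM, did not pass (-0.91 ± 0.38, adjusted p = 0.388). Crh was at 24.4, 40.4, 118, 32.8 and 54.3 CPM in upper-Calb2 cells and had UMIs in the lower-Calb2 cells of replicate 2 only, at 15.7 CPM, and its difference did not pass (adjusted p = 0.0674).

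Widely expressed genes passed as well. Higher in upper-Calb2 cells, each in 5 of 5 animals, were the membrane protein gene Tmem59 (1.40 ± 0.23), the peroxiredoxin gene Prdx1 (1.11 ± 0.16), Rabac1 (0.94 ± 0.16), Itm2c (0.85 ± 0.15), the ribosomal protein gene Rpl3 (0.79 ± 0.12) and the ferritin gene Fth1 (0.75 ± 0.13), with adjusted p between 0.0226 and 0.0451. Lower were the nuclear RNAs Malat1 (-0.25 ± 0.03, adjusted p = 0.0124) and Meg3 (-0.36 ± 0.06, adjusted p = 0.0451). Captured RNA moved with the split: UMIs per spike-in UMI were higher in upper-Calb2 cells in 5 of 5 animals (mean of medians 10.3 against 8.24, exact sign-flip permutation p = 0.0625, the smallest 5 animals can give). When cells of an animal were instead paired on UMIs per spike-in UMI, a choice made after seeing that difference, the ratio was 9.04 against 9.11, Calb2 was 2.14-fold apart, and 0 genes passed with edgeR (401 of 9640 at an unadjusted p under 0.05). Under that pairing the folds were near 0 for Malat1 (-0.00), Meg3 (-0.04) and Tmem59 (0.09). They were 0.19 for Rpl3, 0.25 for Itm2c, 0.34 for Fth1, 0.44 for Rabac1 and 0.71 for Prdx1. Calb1 was at 0.32, Ncald at 0.31, Gap43 at 0.37, Scg2 at 0.44 and Htr2c at 0.70. Prkcd was at -0.56, Pcp4 at -0.79, Lrrc7 at -0.48, Kcna2 at -0.23 and Atp2b1 at -0.16. The folds of the widely expressed genes and of the others thus overlapped in size. The calls also rested on all 5 animals, as leaving out replicate 1, 2 or 5 gave 0 calls (813, 899 and 933 genes at an unadjusted p under 0.05), and replicate 3 or 4 gave 3 and 7.

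**Figure D4:**
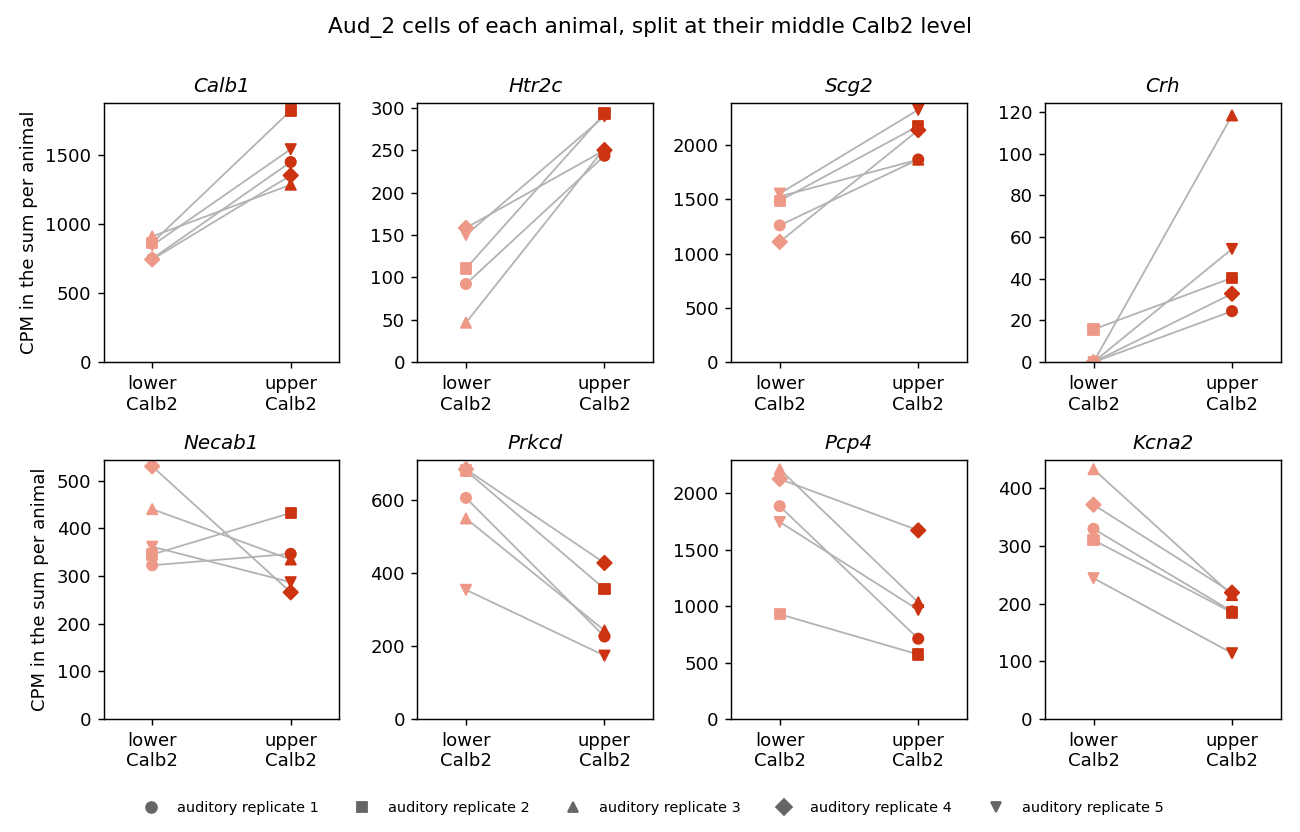
Levels in CPM (y axis) of 8 genes in lower-Calb2 and upper-Calb2 cells of Aud_2 (x axis), summed per animal, with 1 symbol per auditory replicate and a line joining the groups of an animal. Calb1, Htr2c and Scg2 are higher in upper-Calb2 cells in each of the 5 animals, Prkcd, Pcp4 and Kcna2 are lower in each, Necab1 is higher in 2 animals and lower in 3, and the difference of Crh did not pass the test.

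Aud_2 was then set beside the clusters most like it. By Pearson r between mean log2(CPM + 1) profiles over 9474 genes, Aud_1 was the most like Aud_2 (0.912), ahead of the visual cluster Vis_3 (0.907), Vis_2 (0.905) and the prefrontal cluster Pfr_2 (0.899). Aud_3 followed further down the 12 clusters at 0.845, and the somatosensory cluster Som_1 was the least like, at 0.801. These values are across genes within shared libraries and carry no test. The most like cluster of each of the 2 most like other systems, Vis_3 (135 cells) and Pfr_2 (134 cells), both with 4 sums, was compared with Aud_2 in 1 fit with sequencing batch as a covariate. They had been picked for likeness on the same values, so that a low number of differences is partly fixed by the choice. The fit held 21 sums and took its spread also from the most like motor and somatosensory clusters, Mot_3 and Som_2. Its batch term came from the clusters with sums in more than 1 batch, which were Aud_2, Pfr_2 and Mot_3. The folds against Vis_3 thus rest in part on them, and without the batch term 51 genes passed against Vis_3. The Vis_3 mice were 91, 104, 104 and 69 days old and the Pfr_2 mice 91, 91, 77 and 70 days old. Vis_3 cells came from batch 3 only, sort dates differed between systems, and system and sort date cannot be told apart. Vis_3 replicate 1 carries the animal identifier of Aud_2 replicate 5 with another age and sort date, and the fit treated them as separate. Without Vis_3 replicate 1, 9 genes passed between Aud_2 and Vis_3, beside 6 with it.

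Aud_2 and Vis_3 differed in few genes at this depth. Of 13611 genes, 2 (0.0147%) were higher in Aud_2 and 4 (0.0294%) lower, with a median fold of 0.02 over all genes. DESeq2, testing low genes too, called 141 higher and 106 lower. Calb2 was at 526, 1133, 1187 and 764 CPM in Vis_3, overlapping with Aud_2 (-0.36 ± 0.49, adjusted p = 0.967), and Necab1 was at 531, 431, 517 and 484 CPM, above every Aud_2 sum without passing the test (-0.30 ± 0.47, adjusted p = 0.975). A p above the threshold does not show that the levels are equal.

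Of the genes that passed against Vis_3, 4 were lower in Aud_2. Sparcl1, an extracellular matrix gene that astrocytes also express, was at 398, 211, 41.5, 70.9 and 117 CPM in Aud_2 and at 1160.0, 813, 961 and 954 CPM in Vis_3 (-3.04 ± 0.47, adjusted p = 0.00836). Within batch 3, where 1 Aud_2 animal stood against 4 Vis_3 animals, its fold was -3.07, and that lone animal was assumed to vary like those of the other clusters. No cell of Aud_2 or Vis_3 held 3 or more astrocyte markers. Opcml, a cell adhesion gene, was at 21.2, 24.2, 29.1, 14.2 and 32.5 CPM against 201, 193, 180.1 and 187 CPM (-2.45 ± 0.43, adjusted p = 0.0149). Rgs4, whose product dampens G protein signals (-1.41 ± 0.23, adjusted p = 0.00836), and Nefm (449.6, 524, 409.5 and 403 CPM in Vis_3, -1.36 ± 0.22, adjusted p = 0.00836) were lower in Aud_2 with no overlap between groups. Car8, a carbonic anhydrase-related gene strong in cerebellum, was at 7.96, 14.7, 83, 40.7 and 30.5 CPM in Aud_2 and 2.39, 0, 0.987 and 0.274 CPM in Vis_3 (5.59 ± 0.91, adjusted p = 0.00836). The other gene higher in Aud_2 was Slc12a8, which is below the mean level set for naming and was named after its values were seen. Leaving out replicate 5 of Aud_2, the only one in the batch of Vis_3, gave 0 calls (944 genes at an unadjusted p under 0.05), and leaving out Vis_3 replicate 4 gave 3.

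Pfr_2 differed from Aud_2 in more genes, and Calb2 was one of them. Of the 13611 genes, 20 (0.147%) were higher in Aud_2 and 46 (0.338%) lower, and DESeq2 called 162 higher and 180 lower. Calb2 was at 121, 223, 381 and 159.7 CPM in Pfr_2, below every Aud_2 sum, with a difference of 2.18 ± 0.40 (adjusted p = 0.00679). Necab1 was at 343, 559, 695 and 518 CPM and did not pass (-0.56 ± 0.37, adjusted p = 0.677). Hpca, which encodes the calcium sensor hippocalcin, was at 349, 268, 399, 226 and 225 CPM in Aud_2 and 55.9, 14.7, 49.6 and 29.6 CPM in Pfr_2 (2.92 ± 0.31, adjusted p = 2.0e-05). The calcium pump gene Atp2b4 (4.40 ± 0.67), the CRH receptor gene Crhr1 (4.71 ± 0.97), the VIP receptor gene Vipr2 (2.76 ± 0.46), the growth factor gene Hbegf (3.67 ± 0.62), Tcerg1l (3.54 ± 0.70), Fam19a1 (4.06 ± 0.88) and Trbc2 (5.05 ± 1.13) were also higher in Aud_2 with no overlap, at adjusted p of 9.8e-04 to 0.0429.

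Vesicle transporters were among the genes lower in Aud_2 than in Pfr_2. Slc17a8, the third vesicular glutamate transporter gene, was at 0.71, 0.11, 0, 0 and 1.97 CPM in Aud_2 and 101, 46.5, 55.3 and 45.9 CPM in Pfr_2 (-7.05 ± 1.01, adjusted p = 5.0e-04). Slc30a3, the vesicular zinc transporter gene, was at 0.426, 0.767, 0, 0 and 0 CPM against 5.59, 52.6, 39.2 and 4.59 CPM (-6.67 ± 1.26, adjusted p = 0.017). The forkhead gene Foxp1 was at 52.4, 102, 44.2, 83.3 and 35.5 CPM against 313, 288, 248 and 188 CPM (-2.07 ± 0.29, adjusted p = 4.2e-04), and Prkcd at 975, 938, 1448 and 1192 CPM in Pfr_2 (-1.51 ± 0.25, adjusted p = 0.00269). The NMDA receptor subunit gene Grin2a (-1.74 ± 0.25, adjusted p = 6.3e-04), the synapse organizer gene C1ql3 (-6.57 ± 1.40, adjusted p = 0.0264), Zic5 (-5.93 ± 1.09), Ndrg1 (-6.05 ± 0.72), Plch1 (-5.41 ± 1.04), Fndc3b (-5.02 ± 0.97), Cwh43 (-4.24 ± 0.93), Fam19a2 (-4.01 ± 0.71) and the relay marker Abhd12b (-3.75 ± 0.49) were lower too, without overlap. Within batches, 21 genes passed in batch 2 and 0 in batches 1 and 3 (edgeR, 2110 and 401 at an unadjusted p under 0.05). Batch 2 held 2 Aud_2 animals and 1 Pfr_2 animal and batch 3 held 1 of each, so lone animals were assumed to vary like those of the other clusters. The folds were 2.63 for Hpca, -1.67 for Prkcd and -2.02 for Foxp1 in batch 2. Leaving out 1 animal gave 36 (Aud_2 replicate 1) to 60 calls, with 39, 41 and 38 without Aud_2 replicates 2, 3 and 5.

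**Figure D5:**
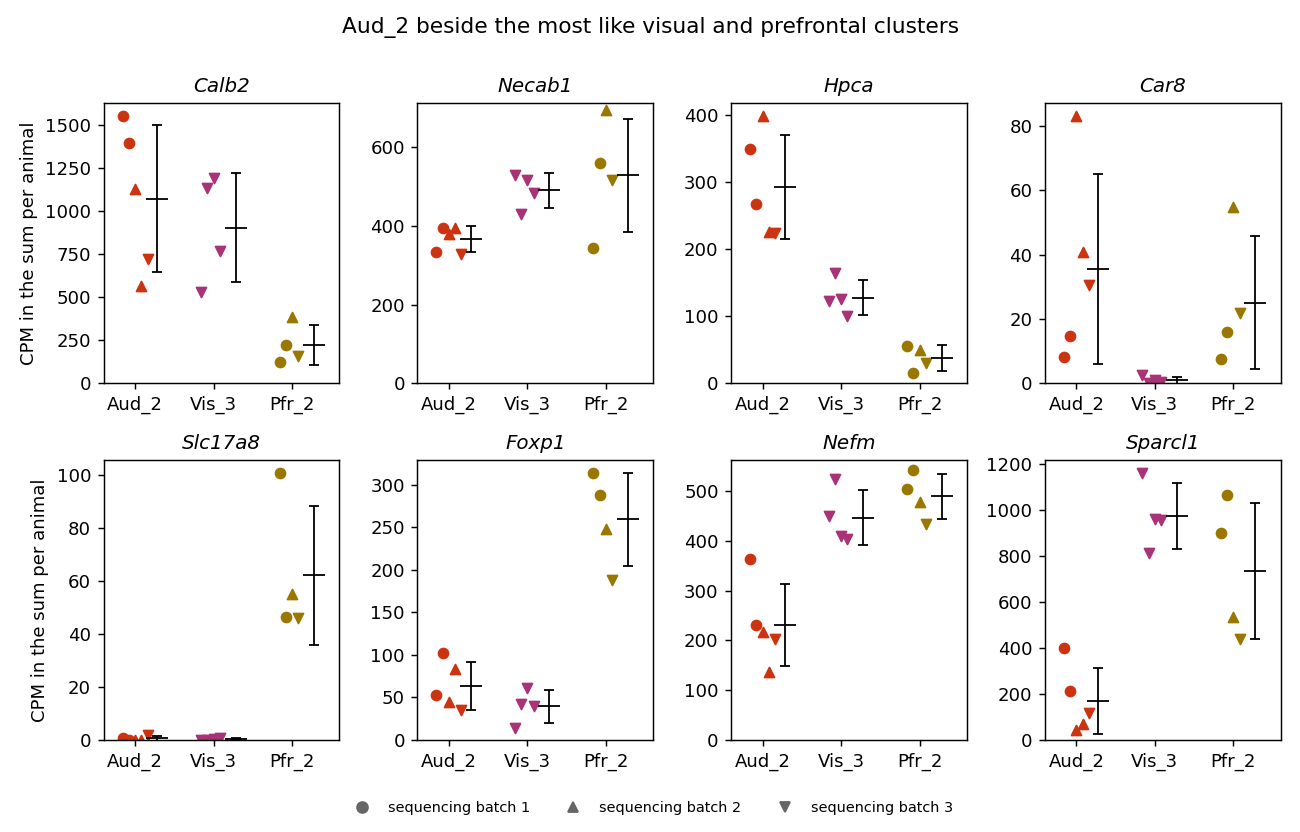
Levels in CPM (y axis) of 8 genes in the sum of each animal for Aud_2, Vis_3 and Pfr_2 (x axis), with symbols for the sequencing batch and black bars for mean ± SD over 5, 4 and 4 animals. Calb2 overlaps between Aud_2 and Vis_3 and is lower in Pfr_2, Slc17a8 is at 45.9 to 101 CPM in Pfr_2 and at most 1.97 CPM elsewhere, and Nefm and Sparcl1 are lowest in Aud_2.

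Against Pfr_2, 13 first-order relay markers were tested, of which 1 (Hpca) was higher in Aud_2 and 3 (Nefm, Prkcd and Abhd12b) lower, with a median of 0.13 beside 0.06 over all genes. Of 13 midline and intralaminar markers, 1 (Calb2) was higher and 2 (Slc30a3 and C1ql3) lower. None of the 12 tested neuropeptide genes, 13 immediate early genes, 17 burst and leak channel genes or 14 GABA receptor genes passed against either Vis_3 or Pfr_2. That is near the shares over all genes, 0.0147% higher and 0.0294% lower against Vis_3 and 0.147% and 0.338% against Pfr_2. Nefm was the only gene of all the gene lists that passed against Vis_3. It was lower in Aud_2 than in Aud_1, Aud_3, Vis_3 and Pfr_2 alike, comparisons that all share the Aud_2 sums.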

How the data were processed

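Poly(A) RNA of single thalamic neurons was measured in 26 plates. The authors deposited a table of raw UMI counts and a cell table holding animal, age, sort date, batch and clusters, per the file headers. Reads were handled with cutadapt 1.16, Picard 1.12, STAR 2.5.3 and mm10, per the submitters' processing notes. The annotation, the counting rule for overlapping, antisense or near-identical genes, and the clustering method are not given in the sources used here. No doublet caller was run, since single cells had been picked by hand.

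Raw counts, without spike-ins, were summed per animal and cluster (at least 5 cells), scaled by TMM, filtered with filterByExpr and tested by edgeR 4.0.16's quasi-likelihood test in R 4.3.3, with Benjamini-Hochberg adjustment over all genes and a threshold of 0.05. DESeq2 1.42.0 and limma 3.58.1 (pseudocount 1) were alternatives. Clusters of an animal share that animal, so the animal was the block. Deviations of same-animal sums correlated at 0.0401 to 0.192 (15 pairs) and those of different animals at -0.126 to 0.105 (60 pairs). Intervals cover counting error only, and a floor of 3 counts stands for 0. Coordinates are GRCm38 (GENCODE). Named genes were the 10 largest folds each way with a mean of at least 10 CPM and 1 direction in every animal (or no overlap), without unnamed gene models, plus members of 21 gene lists. Some genes that this rule selected are not reported here. The members and the lists were chosen with earlier results of these data known. The procedure was tested on simulated counts.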

Additional observations from a re-analysis of the deposited data

Results flagged for a closer look

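Of 112 gene levels checked over the 5 Aud_2 sums, 14 had 1 animal set apart from the others by a gap above 0.71 of the whole range. For a gene with UMIs in 1 animal only, such as Tmem200a or Pxylp1, the gap is the whole range by construction. No chance rate can thus be set beside the count of 14. Replicate 1 stood apart for Kcnip1 (26.3 CPM, the next 0.438), Gad2 (3.27, the next 0.11), Fndc3b (3.41, the next 0.11), Tmem200a (1.71, the others 0) and Pxylp1 (0.142, the others 0). Replicate 3 stood apart for Pde1c (109 CPM, the next 38.1), Tpbg (24, the next 0.493), Cartpt (21.7, the next 7.81), Rasal1 (3.88, the next 0.11) and Ngef (1.55, the next 0.219). Replicate 4, with the fewest cells, stood apart for Fos (221 CPM, the next 83.2), Plch1 (9.74, the next 1.55) and Oprk1 (2.66, the next 0.658). Replicate 2 stood apart for Calb1 (1410.0 CPM, the next 1154). For the genes at a few CPM, 1 or a few cells can set the level of an animal, which was not tested.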

How the results depend on the processing

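No named gene past the threshold changed direction under the alternatives run for it. The number of genes past the threshold moved. With DESeq2 it was 276 against Aud_1 (75 in the report), 1478 against Aud_3 (511), 339 for upper against lower Calb2 cells (26), 247 against Vis_3 (6) and 342 against Pfr_2 (66). Without the filter on low counts it was 175, 746, 190, 49 and 166. With each cell weighted alike, limma gave 63, 843 and 53 for the comparisons inside the auditory system. With batch in place of the animal as a replicate block, 83, 519 and 5 genes passed, and removing the block and adding batch were not tried apart. Leaving out 1 auditory animal gave 28 to 70 against Aud_1 (49, 35, 28 and 32 without replicates 2 to 5), 221 to 581 against Aud_3 (324, 242, 221 and 266 without replicates 2 to 5) and 0 to 7 for Calb2 inside Aud_2. Leaving out 1 animal gave 0 to 9 against Vis_3 and 36 to 60 against Pfr_2. Leaving out the cells of middle Calb2 rank gave 44 calls, and pairing cells on UMIs per spike-in UMI gave 0 with edgeR (401 at an unadjusted p under 0.05). Without the batch term 51 genes passed against Vis_3 and 63 against Pfr_2. Within batch 3, 1 passed against Vis_3, and within batches 1, 2 and 3, 0, 21 and 0 passed against Pfr_2. The cause was not tested. With an animal left out, 71 of 145 values of named genes against Aud_1, 91 of 365 against Aud_3, 85 of 90 for Calb2 inside Aud_2, 7 of 45 against Vis_3 and 59 of 251 against Pfr_2 no longer passed.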
